A study of Mus musculus with 6 samples.

Results

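The genes described here are 42 genes of innate pattern recognition, out of 20659 genes with a named probe on the arrays. They are the Toll-like receptors (TLRs), their co-receptors, adaptors and kinases, the NOD-like receptors (NLRs) and the cytosolic sensors of nucleic acid. They were listed by name, and each was found on the array through the RefSeq transcript that its probe targets, by current or older symbol. Probes were found for 41 of the 42 genes (53 probes), and Clec7a, the receptor for beta-glucans known as dectin-1, was not analysed here because no probe could be tied to it. Expression was measured on 6 Agilent arrays hybridized with Cy3-labelled RNA of whole spleen, with 3 arrays in the MOD group (1, 2 and 3) and 3 in the SA-H group (4, 5 and 6).

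All mice were male ICR mice, an outbred stock, 8 weeks old at purchase, and all those behind these arrays had received cyclophosphamide (Cy), an alkylating agent that depletes blood-forming and lymphoid cells, by intraperitoneal injection at 40 mg/kg for 5 days. The SA-H mice were then given Schisandrol A (SA), a lignan of the fruit of Schisandra chinensis, by gavage, for 4 weeks at 1000 mg/kg/d according to the labels, whereas the study's methods state a shorter time and a smaller dose. MOD mice received Cy and, per the protocol, water in place of SA. The labels date the MOD arrays to day 5 and the SA-H arrays to day 28. The protocol gives both groups the same length of gavage, so the label days conflict with it. Which is right is not known, and by the label days SA and the time since Cy cannot be told apart. No untreated mice were among the arrays. Nothing in the labels says whether each array came from a separate mouse, so the p-values measure the spread between these arrays.

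Toll-like receptors recognise conserved parts of microbes. Those of the cell surface bind lipids, lipoproteins and flagellin, whereas those of the endosome bind nucleic acids or, in the mouse, profilin of protozoa. The receptors signal through adaptors with a TIR domain, chiefly Myd88, to the IRAK kinases, and from there through Traf6 to the TAK1 complex and NF-kB. Traf3 leads instead to the kinases Tbk1 and Ikbke and to type I interferon. The NLRs and Aim2 work in the cytosol, where several of them build inflammasomes that mature interleukin-1 beta, and cGAS with Sting1 senses DNA while Mavs relays the sensing of RNA. In the spleen, red pulp and marginal zone macrophages, dendritic cells, B cells and neutrophils carry different subsets of these genes. In RNA of whole tissue, fewer cells of a type and less RNA per cell cannot be told apart.

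The promoters of the 3 genes called between the groups (Tlr12, Traf3 and Traf6) and of Tlr9, whose level followed the scan day, are given below, since the results turn on these 4 genes. Each covers 300 bases, 250 before the start of the RefSeq transcript and 50 after it (GRCm38.p6), read on the strand of the gene, and capitals mark the matches to 3 motifs searched on both strands.
Tlr12 (chr4:128618570-128618869, minus strand): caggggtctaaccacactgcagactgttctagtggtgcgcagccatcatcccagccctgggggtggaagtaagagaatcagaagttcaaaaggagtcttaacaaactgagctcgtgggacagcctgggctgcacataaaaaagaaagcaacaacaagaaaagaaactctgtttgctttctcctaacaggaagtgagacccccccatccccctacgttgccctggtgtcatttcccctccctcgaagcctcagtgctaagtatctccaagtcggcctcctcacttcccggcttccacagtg
Traf3 (chr12:111166120-111166419, plus strand): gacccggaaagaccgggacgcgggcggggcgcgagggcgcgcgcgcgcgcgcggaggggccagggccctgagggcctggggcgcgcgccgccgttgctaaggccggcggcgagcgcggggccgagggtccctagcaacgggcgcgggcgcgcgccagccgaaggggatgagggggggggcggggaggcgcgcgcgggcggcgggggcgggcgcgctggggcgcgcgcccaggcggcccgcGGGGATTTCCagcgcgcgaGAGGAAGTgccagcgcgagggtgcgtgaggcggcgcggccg
Traf6 (chr2:101678170-101678469, plus strand): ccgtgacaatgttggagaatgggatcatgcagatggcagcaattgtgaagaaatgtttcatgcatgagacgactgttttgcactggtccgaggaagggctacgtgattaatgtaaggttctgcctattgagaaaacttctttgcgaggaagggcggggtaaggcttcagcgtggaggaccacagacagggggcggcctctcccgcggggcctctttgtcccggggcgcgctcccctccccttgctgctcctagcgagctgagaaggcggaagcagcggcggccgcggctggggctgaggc
Tlr9 (chr9:106222348-106222647, plus strand): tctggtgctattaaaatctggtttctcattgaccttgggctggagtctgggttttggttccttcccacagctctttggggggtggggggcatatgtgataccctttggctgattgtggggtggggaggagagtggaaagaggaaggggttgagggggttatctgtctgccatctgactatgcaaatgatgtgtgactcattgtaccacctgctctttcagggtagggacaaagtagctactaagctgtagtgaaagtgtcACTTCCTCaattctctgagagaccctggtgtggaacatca
The motifs were GAGGAAGT, a core bound by PU.1 and related ETS factors of myeloid and B cells, an NF-kB motif (GGG and TTTCC with 2 bases of any kind between them), and an interferon response element (GAAA and GAAA with 2 bases of any kind between them). Traf3 held the first motif and the NF-kB motif, in a window of 84.0% G and C. Tlr9 held the ETS core on the opposite strand, in a window of 49.7% G and C. Tlr12 (52.3% G and C) and Traf6 (59.3%) held none of the 3. Of 43 promoters found for 33 of the 42 genes, 6 held the ETS core (Aim2, Pycard, Tlr1, Tlr11, Tlr9 and Traf3), against 3.2% of all 32851 promoters. The NF-kB motif stood in 3 of them (Map3k7, Tlr3 and Traf3), against 1.63% of all, and the interferon element in 3 (Myd88, Tlr11 and Tlr6), against 3.44%. A match to these letters is a description of the window and no evidence of binding.

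Levels are log2 processed signals relative to the 75th percentile of the same array, so a level of 0 is the signal of that percentile, and the levels of different probes are not comparable. Changes are SA-H minus MOD on that log2 scale. The software of the scanner called 43.1% to 73.9% of spots well above background. MOD array 2 (72.2%) and SA-H array 5 (73.9%) stood apart from the other 4 arrays (at most 49.4%), and SA-H array 4 was the dimmest, with a 75th percentile of 220 against 433 to 868 on the others. The arrays were scanned on 3 days, with MOD 1, MOD 3 and SA-H 6 on day 1, MOD 2 and SA-H 4 on day 2 and SA-H 5 alone on day 3. The deposited value table of the same series did not follow the scanner arrays label by label. After each gene was centred, the correlation across genes between a column and the scanner array of the same label ran from -0.277 (MOD 3) to 0.462 (MOD 1), and the array of its own label was the closest in 3 of 6 columns. The MOD 3 column was closest to SA-H array 4 (0.3), an array of the other group. The SA-H 4 column was closest to SA-H array 5 (0.226) and the SA-H 5 column to SA-H array 6 (0.255). Which source carries the right labels was not tested. The scanner signals are the basis below, with values of the value table beside them.

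Of the 42 genes, 30 could be tested, 27 of them well above background on all 6 arrays. Traf6, Tbk1 and Ikbke were called below that mark on SA-H 4, and Traf6 also on SA-H 6. The other 11 genes with probes were too dim in both groups. Tlr3, the receptor for double-stranded RNA, Tlr5, that for flagellin, Tlr8, a relative of Tlr7, and the adaptor Ticam2 were above background only on MOD 2 and SA-H 5, the arrays with the most spots above background. Tlr11, Cd14, Irak3 and Nlrc4 were above it on 4 arrays, and Ticam1, Irak4 and Nlrp3 on 3. For these 11 no change between the groups was tested.

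In the scanner signals, few of the pattern recognition genes were called between SA-H and MOD spleens. By limma, 1 of the 30 genes (Tlr12) was higher with SA at an unadjusted p below 0.05 and 2 were lower (Traf3 and Traf6), which is 3.33% and 6.67% of them, whereas 10.8% of all 14474 features tested were higher and 12.5% lower. Traf6 was tested only because it was above background on the MOD arrays, where it was higher. Over the 27 genes and 12152 features above background on all 6 arrays, 2 genes were higher (Tlr12 and Tirap) and 1 was lower (Traf3), against 10.4% and 12.4% of those features. With a fold of at least 2 as well, Tlr12 stayed among the higher features (7.74% of all) and Traf6 among the lower (5.03% of all). No gene of the 30 passed an adjusted p of 0.05, and neither did any feature of the array (0.0%), either by limma or by the methods' analysis of variance. The smallest adjusted p by limma among the 30 was 0.129, against 0.0712 over all features. With scan day as a fixed term in limma, 1075 features passed an adjusted p of 0.05, Traf6 alone among the 30.

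The median change of the 30 genes was 0.03, with quartiles at -0.16 and 0.40, and the median over all features was -0.04, with quartiles at -0.46 and 0.46. The median size of the change, whatever its sign, was 0.23 for the 30 genes and 0.46 for all features. For 15 of the 30 genes the 95% interval of the change lay wholly within 2-fold either way, and this held for 32.1% of all features. SA-H array 4 was the lowest of the 6 arrays for 14 of the 30 genes (46.7%), and for 29.7% of all features. The same array was the highest for 6 of the 30 genes (20.0%), and for 35.2% of all features. Without that array the median change of the 30 genes was 0.21.

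**Figure D1:**
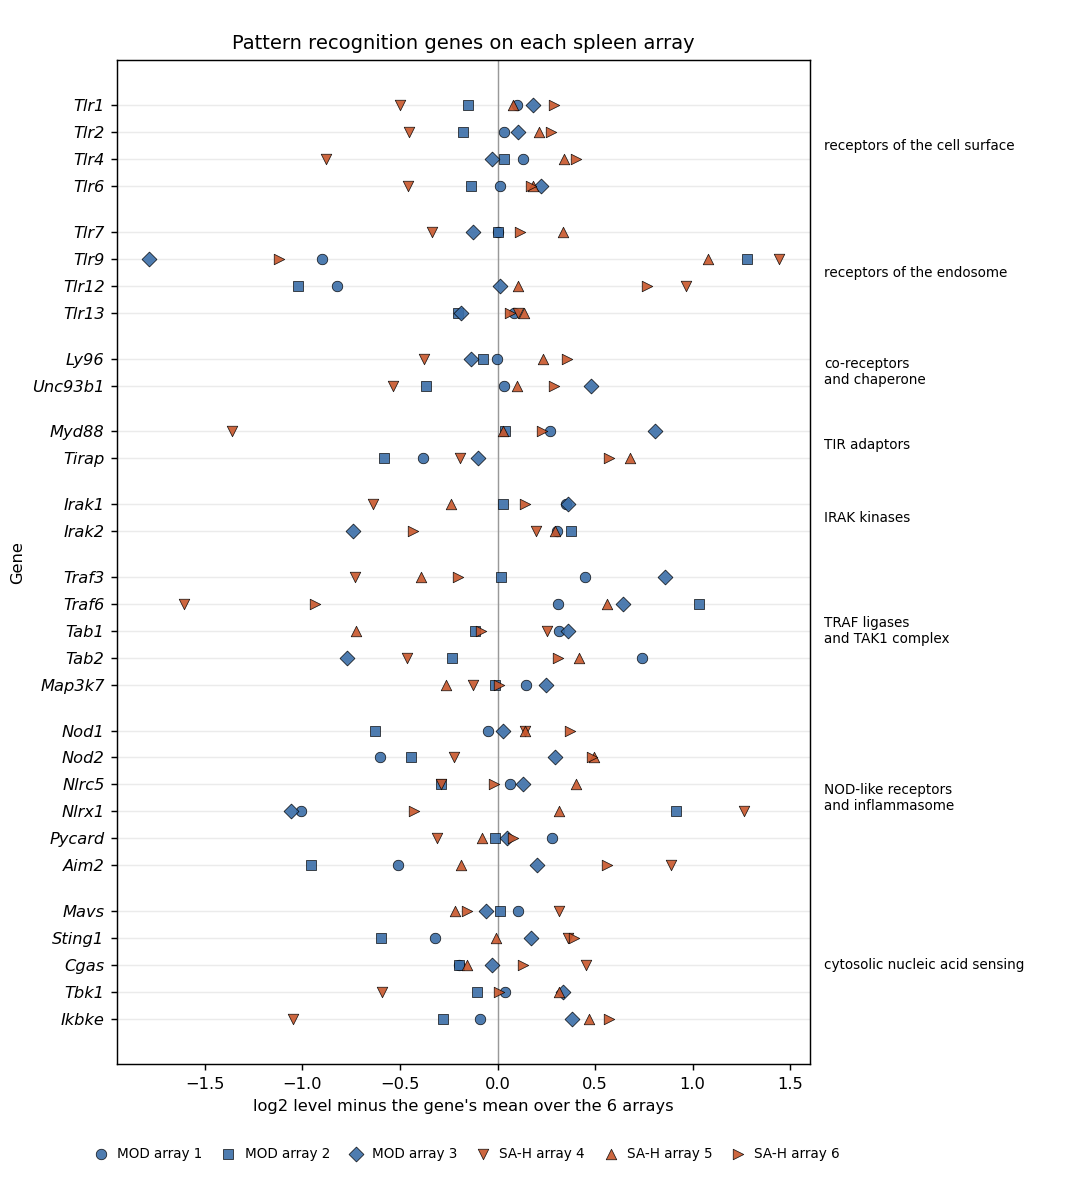
Log2 level of each of the 30 tested pattern recognition genes on each array, minus the gene's mean over the 6 arrays, with MOD arrays in blue and SA-H arrays in orange and the genes grouped by role. SA-H array 4, drawn as a triangle pointing down, is the lowest array for 14 of the 30 genes and the highest for 6. The groups are apart only for Tlr12, Traf3 and Nod1.

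Among the receptors of the cell surface, the 4 that could be tested showed changes between -0.09 and 0.02. Tlr2, which pairs with Tlr1 or Tlr6 to bind bacterial lipoproteins, had levels of -0.61, -0.82 and -0.54 in MOD 1, 2 and 3 against -1.10, -0.43 and -0.37 in SA-H 4, 5 and 6. SA-H 4 was the lowest array and the other SA-H arrays the highest, so that the MOD arrays lay inside the SA-H range. The change was 0.02 (SE 0.28, 95% interval -0.63 to 0.67).
Tlr4, the receptor for lipopolysaccharide, was at -0.92, -1.02 and -1.08 in MOD 1, 2 and 3 against -1.93, -0.71 and -0.65 in SA-H 4, 5 and 6. The order of the arrays was the same in kind, with SA-H 4 lowest and SA-H 5 and 6 highest. Its change was -0.09 (SE 0.38, interval -0.97 to 0.79). Tlr1 (change -0.08, SE 0.28) and Tlr6 (change -0.07, SE 0.27), the partners of Tlr2, had SA-H 4 as their lowest array too, and their intervals lay within 2-fold either way. The value table had Tlr1 higher in the SA-H group by 0.47 (unadjusted p = 0.0175 and adjusted p = 0.0838 by limma), against -0.08 from the scanner signals.

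Neither co-receptor that could be tested was called. Ly96, also called MD-2, which holds lipopolysaccharide on Tlr4, had a mean level of -0.44 ± 0.06 in MOD spleens and -0.29 ± 0.39 in SA-H spleens (SD, n = 3 each), a change of 0.14 (SE 0.27). Unc93b1, the chaperone that carries the nucleic acid receptors to the endosome, was at 2.66 ± 0.43 and 2.56 ± 0.43 (SD, n = 3 each), a change of -0.10 (SE 0.33). The groups overlapped for both genes. The value table had Unc93b1 higher by 0.41 (unadjusted p = 0.0432 and adjusted p = 0.14 by limma). Cd14, which hands lipopolysaccharide to Ly96, was too dim for a test.

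The receptors of the endosome held the gene with the smallest p of the 30. Tlr12, a receptor for protozoan profilin that acts together with Tlr11, was at 0.53, 0.33 and 1.37 in MOD 1, 2 and 3 against 2.32, 1.46 and 2.12 in SA-H 4, 5 and 6. All SA-H arrays were above all MOD arrays, although SA-H 5 lay only just above MOD 3. The change was 1.22 (SE 0.37, 95% interval 0.35 to 2.09), or 2.33-fold, with an unadjusted p of 0.0124 and an adjusted p of 0.129 by limma. Within scan day 1 the change was 1.16 and within day 2 it was 1.99, and with scan day blocked it was 1.52. With arrays scaled by their medians, which moved the median of all features to -0.36, it was 0.90 and did not pass the test. The value table gave 0.28 (adjusted p = 0.341 by limma). Tlr11 was too dim for a test, at -3.50, -3.52 and -2.92 in MOD 1, 2 and 3 against -3.05, -3.0 and -2.82 in SA-H 4, 5 and 6.

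Tlr12 and Nod1 were the 2 genes of the 30 whose SA-H arrays were all higher than the MOD arrays, as were those of 11.9% of all features. Traf3 was the 1 gene whose SA-H arrays were all lower (20.7% of all features). Markers of plasmacytoid dendritic cells, among the cells known to express Tlr12 in the mouse, were read beside it. Of 8 markers 7 were tested, but only 4 of these were above background on all 6 arrays, and their median change was 0.83. Siglech (1.22, but 0.03 in the value table) and Spib (0.80, and 0.70 there) were among the 4 and passed an unadjusted p of 0.05. Bst2 (0.85, and 0.26 there) and Tcf4 (-0.12, but 0.49 there), also among the 4, did not pass it. For Siglech the groups overlapped, with SA-H 5 (5.46) below MOD 3 (5.68). Klk1 (1.39) and Cox6a2 (1.31) passed an unadjusted p of 0.05 too but entered the test through the SA-H arrays alone, where they were high. Of all features, 10.8% were higher at that p. In the value table the median of the 7 was 0.38. The summed level of the list on the linear scale, relative to the 75th percentile, was 68.4 to 102 on the MOD arrays and 94.1 to 215 on the SA-H arrays. Siglech, the defining surface marker, was well above background on all 6 arrays. Macrophages also express Tlr12, and 2 of their 15 tested markers were higher and 1 lower, where 10.8% and 12.5% of all features were. The lower marker, C1qa, entered the test through the MOD arrays alone, where it was higher. The median of the 15 was -0.46 (-0.15 for those above background on all 6 arrays, and -0.08 in the value table). Their summed level was 96.6 to 119 on the MOD arrays and 91.7 to 131 on the SA-H arrays. The part of these cells in the level of Tlr12 was not tested.

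Tlr7 and Tlr9, the receptors for single-stranded RNA and for unmethylated DNA that plasmacytoid dendritic cells and B cells are known for, were not called between the groups. For Tlr7 the levels were -0.82, -0.82 and -0.95 in MOD 1, 2 and 3 against -1.16, -0.49 and -0.71 in SA-H 4, 5 and 6. The groups overlapped, and the change was 0.08 (SE 0.26). A second probe of Tlr7 gave a change of -1.09 (unadjusted p = 0.0561 by limma over all kept probes), so the 2 probes of this gene disagreed. The second probe was at -0.41, -0.93 and -0.26 in MOD 1, 2 and 3 against -2.69, -1.25 and -0.91 in SA-H 4, 5 and 6. It was above background on 5 arrays and entered the test through the MOD arrays alone, where it was higher. Its level on SA-H 4 lay near background, so its change rests in part on that signal. Tlr13, which binds bacterial ribosomal RNA, was at 1.88 ± 0.16 and 2.09 ± 0.03 (SD, n = 3 each), a change of 0.20 (SE 0.22) with overlapping groups.

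The level of Tlr9 differed by the scan day of the array more than by the group. It was -0.74, 1.44 and -1.63 in MOD 1, 2 and 3 against 1.60, 1.24 and -0.96 in SA-H 4, 5 and 6. MOD 2, SA-H 4 and SA-H 5, scanned on the later days, were all high, and the arrays of day 1 were all low. The arrays of the later days averaged 2.54 above those of day 1. Between the groups the change was 0.94 (SE 0.93, 95% interval -1.25 to 3.12), but it was 0.22 within day 1, 0.16 within day 2 and 0.20 when scan day was blocked. The value table had Tlr9 lower in the SA-H group, by 0.64 on the log2 scale (unadjusted p = 0.0176 and adjusted p = 0.084 by limma).

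Nlrx1, an NLR of the mitochondrion that dampens Mavs signalling, was high and low on the same arrays. It was at -2.52, -0.60 and -2.57 in MOD 1, 2 and 3 against -0.25, -1.20 and -1.94 in SA-H 4, 5 and 6, with the later days 1.66 above day 1. Tlr9 and Nlrx1 were the 2 genes of the 30 (6.67%) with every array of the later days above every array of day 1, and 9.38% of all features shared this order. Nlrp3, the sensor of the best known inflammasome, was too dim for a test but was also above background only on those 3 arrays, at -2.06 on MOD 2, -1.87 on SA-H 4 and -2.35 on SA-H 5, against -5.23, -5.44 and -4.52 on the arrays of day 1. The group change of Nlrx1 was 0.77 (SE 0.64), with an unadjusted p of 0.269 by limma. A second probe of Nlrx1, of another transcript and too dim to be kept, did not share the order by scan day. It was at -3.22, -3.24 and -2.94 in MOD 1, 2 and 3 against -4.85, -3.02 and -2.95 in SA-H 4, 5 and 6, a change of -0.47. The order by scan day is therefore that of 1 of the 2 probes of Nlrx1.

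**Figure D2:**
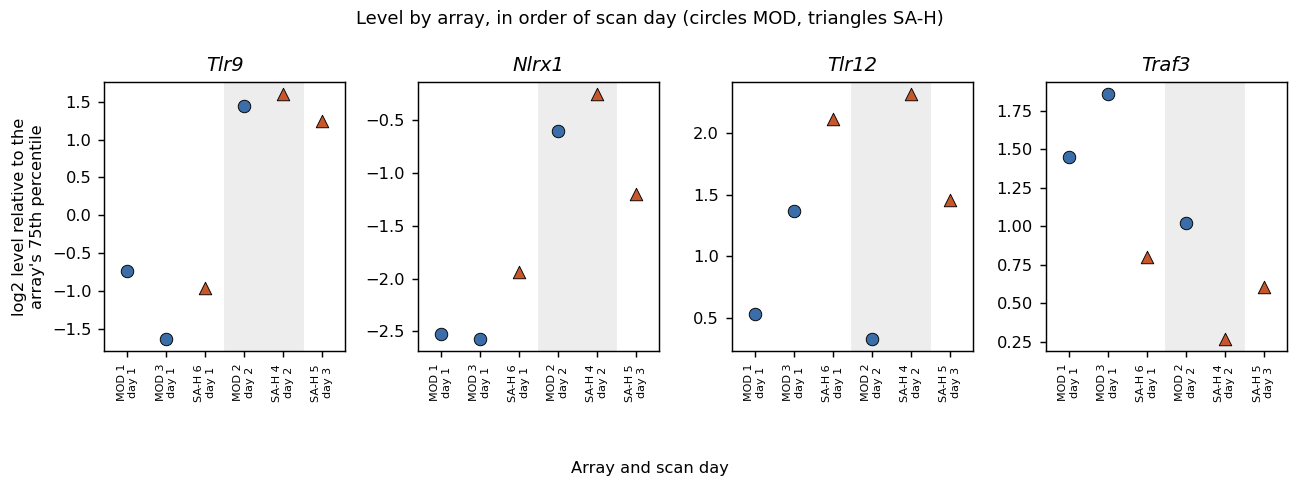
Log2 level of Tlr9, Nlrx1, Tlr12 and Traf3 on each array, relative to the array's 75th percentile, with the arrays in order of scan day, MOD arrays as blue circles and SA-H arrays as orange triangles. Tlr9 and Nlrx1 are low on the 3 arrays of day 1 and high on the later ones in both groups, whereas within days 1 and 2 the SA-H arrays are higher for Tlr12 and lower for Traf3.

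Downstream of the receptors, the adaptors did not pass the test. Myd88, the adaptor of nearly all TLRs and of the interleukin-1 receptor, was at 1.1, 0.87 and 1.64 in MOD 1, 2 and 3 against -0.53, 0.86 and 1.06 in SA-H 4, 5 and 6. SA-H 4 stood well below the rest, and the other 2 SA-H arrays lay within or close to the MOD range. The change was -0.74 (SE 0.46, 95% interval -1.82 to 0.34, unadjusted p = 0.149 by limma).
Tirap, which brings Myd88 to Tlr2 and Tlr4, had a change of the other sign. It was at -1.10, -1.30 and -0.82 in MOD 1, 2 and 3 against -0.91, -0.04 and -0.15 in SA-H 4, 5 and 6, where SA-H 4 lay inside the MOD range and SA-H 5 and 6 above it. Its change was 0.70 (SE 0.31, unadjusted p = 0.0555 by limma). Ticam1 and Ticam2, the adaptors of the interferon branch also known as TRIF and TRAM, were too dim for a test.

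The IRAK kinases bind Myd88 and pass the signal on. Irak1 was at 1.68, 1.36 and 1.69 in MOD 1, 2 and 3 against 0.69, 1.09 and 1.47 in SA-H 4, 5 and 6. SA-H 4 and 5 lay below the MOD range and SA-H 6 within it, for a change of -0.49 (SE 0.28, unadjusted p = 0.118 by limma). Its 2 other kept probes, 1 of them of another transcript, gave changes of -0.36 and 0.46, so the probes of Irak1 disagreed in direction. The probe with -0.36 was above background on 5 arrays, and its lowest level was on SA-H 4, at -3.86. Irak2 was at 1.06 ± 0.63 and 1.1 ± 0.40 (SD, n = 3 each), a change of 0.04 (SE 0.38). Irak3, an inhibitor found in macrophages, and Irak4, the first kinase of the chain, could not be tested.

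Both genes called lower were TRAF ligases, 2 of 5 tested genes with the TAK1 complex (12.5% of all features were lower). Traf6 entered the test through the MOD arrays alone, where it was higher. Of the 4 genes of this group above background on all 6 arrays, only Traf3 was lower. Traf3, the ligase that links the receptors to Tbk1 and interferon and restrains the alternative NF-kB route, was at 1.45, 1.02 and 1.86 in MOD 1, 2 and 3 against 0.27, 0.61 and 0.80 in SA-H 4, 5 and 6. All SA-H arrays were below all MOD arrays. The change was -0.88 (SE 0.30, 95% interval -1.58 to -0.18), or 1.84-fold lower, with an unadjusted p of 0.0203 and an adjusted p of 0.153 by limma. Within scan days 1 and 2 it was -0.86 and -0.75, and with scan day blocked -0.81. Without MOD 1 (-0.88) or without MOD 3 (-0.67) Traf3 no longer passed an unadjusted p of 0.05.
The value table gave the opposite direction for Traf3. Its log2 values there were 9.68, 9.74 and 9.75 for the MOD samples and 10.39, 10.57 and 10.36 for the SA-H samples, a change of 0.72 (adjusted p = 0.0178 by limma). The groups did not overlap in either source, so the direction for Traf3 depends on which deposited values are read.

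Traf6, the ligase that activates the TAK1 complex, was the dimmest of the genes called. It was at -2.63, -1.91 and -2.30 in MOD 1, 2 and 3 against -4.55, -2.38 and -3.88 in SA-H 4, 5 and 6. SA-H 5 lay within the MOD range, and the low values of SA-H 4 and 6 were those not well above background, so the SA-H mean rests in part on signals near background. The change was -1.32 (SE 0.54, 95% interval -2.60 to -0.05, unadjusted p = 0.0439 and adjusted p = 0.202 by limma). It was -0.11 after normexp background correction, and -0.02 in the value table. Within scan days 1 and 2 it was -1.41 and -2.63. With scan day blocked it was -1.94 (adjusted p = 0.0285 by limma). Traf6 no longer passed an unadjusted p of 0.05 when any array other than SA-H 5 was left out, with changes from -1.50 to -0.85, nor without a filter on dim probes, after normexp, or by the methods' analysis of variance. A filter on all 6 arrays removed it. With arrays scaled by their medians it was -1.64 (adjusted p = 0.0243 by limma).

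The TAK1 complex, which phosphorylates the IKK and MAP kinases, was not called. Map3k7, which encodes TAK1 itself, was at 0.84 ± 0.13 and 0.59 ± 0.13 (SD, n = 3 each), a change of -0.25 (SE 0.22) with an interval inside 2-fold. A second kept probe of Map3k7 gave -0.47. Its partner Tab1 was at 1.66 ± 0.26 and 1.28 ± 0.50 (SD, n = 3 each), a change of -0.37 (SE 0.32), and the value table gave a like amount, -0.37 (unadjusted p = 0.0368 and adjusted p = 0.127 by limma). Tab2, which binds the ubiquitin chains made by Traf6, was at 0.44 ± 0.77 and 0.62 ± 0.48 (SD, n = 3 each), a change of 0.17 (SE 0.44). The median change of the 5 ligase and TAK1 genes was -0.37.

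**Figure D3:**
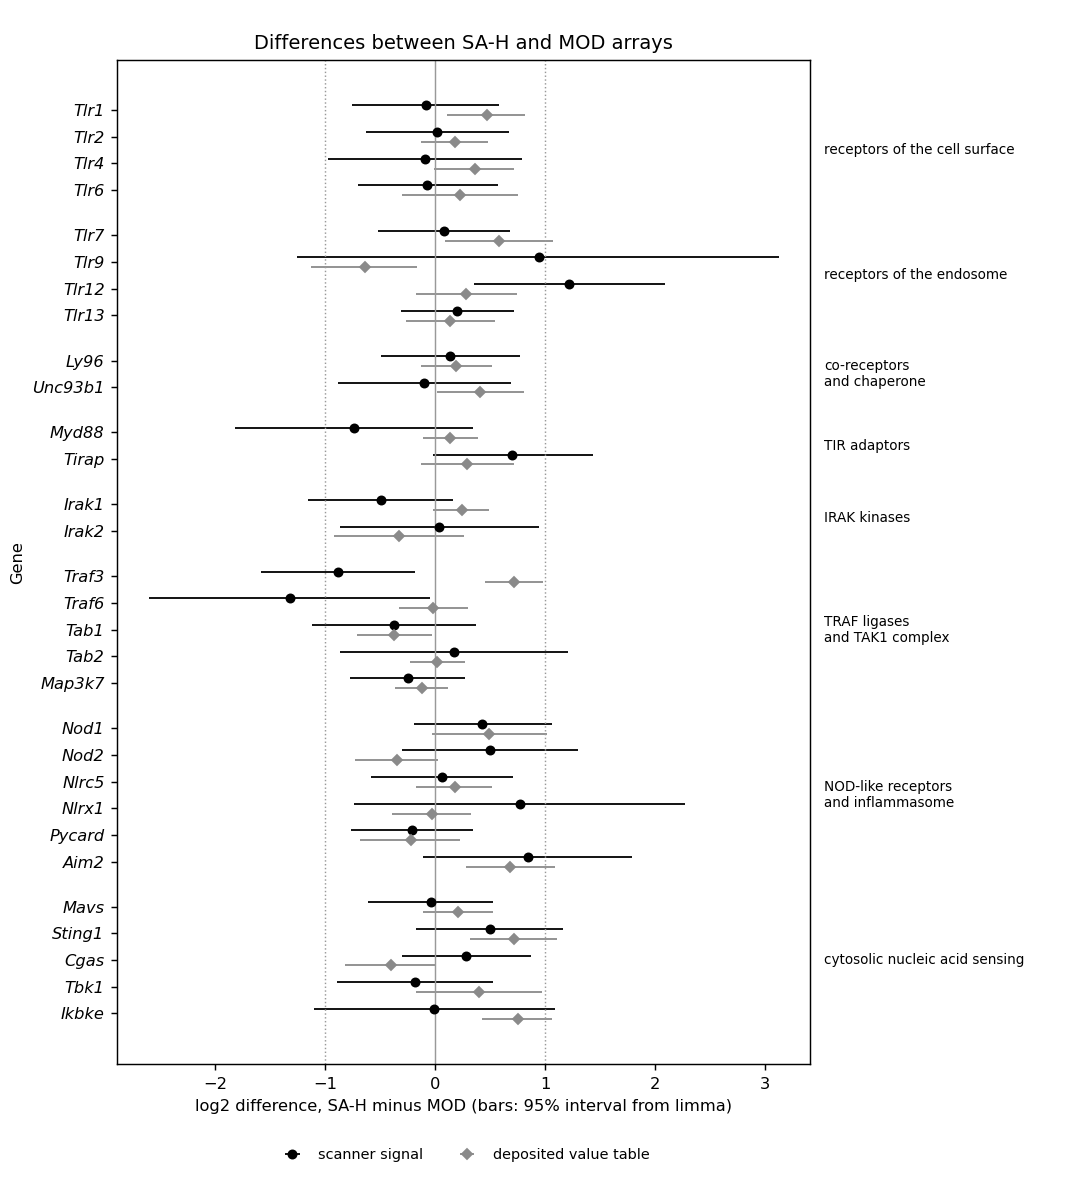
Log2 difference between the SA-H and MOD groups for the 30 tested genes, with 95% intervals from limma, from the scanner signals (black circles) and from the deposited value table (grey diamonds); dotted lines mark a 2-fold change. Only Tlr12, Traf3 and Traf6 have scanner intervals that leave out 0, and for Traf3 the value table lies on the other side, at 0.72 against -0.88.

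Among the NLRs and inflammasome genes, 6 could be tested, none was called in the fit without a block, and their median change was 0.47. Nod1, a sensor of bacterial peptidoglycan, was at 1.94, 1.36 and 2.02 in MOD 1, 2 and 3 against 2.13, 2.13 and 2.36 in SA-H 4, 5 and 6. The groups did not overlap, but the lowest SA-H arrays lay only slightly above MOD 3, and the change was 0.43 (SE 0.26, unadjusted p = 0.144 by limma). The value table gave 0.49 (unadjusted p = 0.0625 by limma).
Nod2, which senses muramyl dipeptide, was at -2.38 ± 0.48 and -1.88 ± 0.41 (SD, n = 3 each), a change of 0.50 (SE 0.34) from the scanner signals and of -0.35 in the value table. Neither passed the test. Nlrc5, an activator of MHC class I genes, was at 1.67 ± 0.23 and 1.73 ± 0.35 (SD, n = 3 each), a change of 0.06 (SE 0.27).

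Aim2, the inflammasome sensor of cytosolic DNA, was at 1.49, 1.04 and 2.20 in MOD 1, 2 and 3 against 2.89, 1.81 and 2.56 in SA-H 4, 5 and 6. SA-H 4 and 6 were above every MOD array, and SA-H 5 lay between MOD 1 and MOD 3. The change was 0.84 (SE 0.40, 95% interval -0.11 to 1.79, unadjusted p = 0.074 and adjusted p = 0.252 by limma). With scan day as a fixed term it was 1.20, and 1.08 when slide scans were treated as random blocks, and in both fits it passed an unadjusted p of 0.05 (adjusted p = 0.087 and 0.162 by limma). In the value table it was 0.68 (adjusted p = 0.049 by limma), in the same direction. Pycard, the adaptor also called ASC that joins Aim2 or Nlrp3 to caspase-1, was at 2.20 ± 0.15 and 1.99 ± 0.19 (SD, n = 3 each), a change of -0.21 (SE 0.23) with an interval inside 2-fold.

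The cytosolic nucleic acid genes had a median change of -0.01, and none of the 5 was called. Sting1, the adaptor of cytosolic DNA sensing in the endoplasmic reticulum, was at 2.61, 2.33 and 3.10 in MOD 1, 2 and 3 against 3.29, 2.92 and 3.32 in SA-H 4, 5 and 6. SA-H 4 and 6 were above all MOD arrays, and SA-H 5 was below MOD 3. The change was 0.50 (SE 0.28, unadjusted p = 0.122 by limma), and the value table gave 0.72 (adjusted p = 0.043 by limma).
Cgas, the synthase whose product binds Sting1, was at -0.04 ± 0.10 and 0.24 ± 0.30 (SD, n = 3 each), a change of 0.28 (SE 0.25). Mavs, the adaptor of the RNA sensors on the mitochondrion, was at 1.46 ± 0.08 and 1.42 ± 0.29 (SD, n = 3 each), a change of -0.04 (SE 0.24). Both had overlapping groups and intervals inside 2-fold.
The kinases at the end of this branch phosphorylate the interferon regulatory factors. Tbk1 had a change of -0.18 (SE 0.30), with SA-H 4 too near background. Ikbke was at -2.28, -2.47 and -1.81 in MOD 1, 2 and 3 against -3.24, -1.72 and -1.62 in SA-H 4, 5 and 6. SA-H 5 and 6 were above all MOD arrays and SA-H 4, dim there, was below them. Its change was -0.01 (SE 0.46, 95% interval -1.10 to 1.09), and in the value table it was 0.75 (adjusted p = 0.0241 by limma).

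By the value table, 7 of the 30 genes passed an unadjusted p of 0.05 as higher (Tlr1, Tlr7, Unc93b1, Traf3, Aim2, Sting1 and Ikbke), or 23.3%, where 16.3% of all features were higher. The 2 lower genes, Tlr9 and Tab1 (6.67%), stand beside 16.4% of all features. After adjustment over all features, Traf3, Aim2, Sting1 and Ikbke were higher (13.3%, against 5.02% of all) and 0 were lower (7.28% of all). The median change of the 30 genes there was 0.20, and that of all features was 0.00. Tlr7 was higher by 0.58 in that table (adjusted p = 0.107 by limma). Tlr12, called from the scanner signals, was not called there. The sign differed between the sources also for genes called in neither. These were Tlr4 (0.36 in the value table), Tlr6 (0.23), Myd88 (0.14), Irak1 (0.24), Irak2 (-0.33), Nod2 (-0.35), Nlrx1 (-0.03), Mavs (0.21), Cgas (-0.40) and Tbk1 (0.40).

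Beyond these 42 genes, 143 other genes of the pathway were listed in 8 groups and 110 of them could be tested. At an unadjusted p under 0.05, 8 were higher and 11 lower, or 17.3% of them, against 23.3% of all features, and their median change was -0.04. Of the lower genes, Naip1, Tank, Ikbkg and Map2k6 entered the test through the MOD arrays alone, where they were higher. Over the 99 genes above background on every array, 9 were higher and 7 lower, or 16.2%, against 22.8% of such features. The median change of these 99 genes was 0.03. There were 37 higher and 13 lower among the 110 by the value table. None passed the adjusted test on the scanner signals.

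The sensing partners of the receptors had 0 genes higher and 2 lower of 11 (against 10.8% and 12.5% of all features), with a median of -0.36. Cd36, a scavenger receptor that works with Tlr2 and Tlr6, was at 1.67, 1.38 and 1.17 in MOD 1, 2 and 3 against 0.03, 0.65 and 0.48 in SA-H 4, 5 and 6, so that the groups did not overlap. It fell by 1.02 on the log2 scale (SE 0.27, adjusted p = 0.106 by limma), and the value table gave -0.50. Ctsb, a lysosomal protease, fell by 0.70. Adipocytes also express Cd36. Of their 9 markers 7 were tested and 5 passed as lower, as did 12.5% of all features. However, 5 of the 7 markers entered the test through the MOD arrays alone, where they were higher. The median was -2.38 over the 7, -0.51 over the 2 above background on all 6 arrays, -1.21 after normexp and -0.67 in the value table, with a summed level of 9.60 to 14.0 on the MOD arrays and 5.34 to 6.06 on the SA-H arrays. Their defining marker Adipoq failed the background call on 1 SA-H array, and Lep passed it on none of the 6. The part of adipocytes, or of any other cell type, in the level of Cd36 was not tested.

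Among the other cytosolic sensors of RNA and DNA, 2 of 11 were higher and 0 lower, against 10.8% and 12.5% of all features. Their median was 0.03. Ifi204, an interferon-inducible DNA sensor, rose by 0.90 (SE 0.28, adjusted p = 0.132 by limma), and the value table gave 0.24. Enpp1, which degrades the product of cGAS, rose by 0.97 in the scanner signals but was at -0.25 in the value table. The C-type lectin genes, the family of Clec7a, had 0 higher and 1 lower of 10 (median -0.05). The lower one was Mrc1, the macrophage mannose receptor, with a change of -0.91 from the scanner signals and -0.94 in the value table.

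The partners of the inflammasome and the NLRs had 2 genes higher and 1 lower of 15 (median -0.27). Il1b, which encodes the cytokine that inflammasomes mature and is itself induced through Myd88, was at 0.96, 1.15 and 1.00 in MOD 1, 2 and 3 against 2.13, 2.52 and 2.23 in SA-H 4, 5 and 6. The groups were far apart compared with their spread. It rose by 1.26 (SE 0.23, adjusted p = 0.0795 by limma), and by the value table the change was 0.38. Naip5, which presents flagellin to Nlrc4, rose by 1.25 (SE 0.26, adjusted p = 0.0882 by limma), from levels of 4.85, 5.18 and 4.98 to 6.58, 5.90 and 6.28, and the value table gave 0.04. Naip1, which binds the needle protein of bacterial secretion systems, was above background on 1 of 3 SA-H arrays and so entered the test through the MOD arrays. Its change was -0.78, and in the value table -1.01 (adjusted p = 0.0182 by limma). The Naip genes are close copies of each other, so their probes may share targets. Neutrophils express Il1b, and 2 of their 13 tested markers were higher and 1 lower (median -0.15, and -1.11 in the value table). Of all features, 10.8% were higher and 12.5% lower. The summed level of the neutrophil markers was 317 to 421 on the MOD arrays and 367 to 1050 on the SA-H arrays. The part of neutrophils in the level of Il1b was not tested.

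The brakes of the pathway had 1 gene higher and 2 lower of 17 (median 0.15), against 10.8% and 12.5% of all features. Tank, which binds Traf3 and Tbk1 and restrains Traf6, was at -1.94, -2.01 and -2.0 in MOD 1, 2 and 3 against -4.78, -3.37 and -3.47 in SA-H 4, 5 and 6. On 2 of the 3 SA-H arrays it did not clear the background. Its change was -1.89 (SE 0.40, adjusted p = 0.0878 by limma), against 0.04 in the value table. Il1rl1, the interleukin-33 receptor, fell by 0.95, and Pdlim2, a nuclear ligase that ends NF-kB activity, rose by 0.68.

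The ubiquitin and kinase links downstream had 2 genes higher and 4 lower of 21, with a median of -0.28, where 10.8% of all features were higher and 12.5% lower. Of the 4 lower genes, Ikbkg and Map2k6, the latter named after its values were seen, entered the test through the MOD arrays alone. Chuk, which encodes the kinase IKK alpha, was at 2.93, 2.64 and 3.36 in MOD 1, 2 and 3 against 1.53, 1.93 and 2.19 in SA-H 4, 5 and 6, with no overlap. Its change was -1.09 (SE 0.29, adjusted p = 0.108 by limma), and in the value table it was 0.00. Ikbkg, the regulatory subunit of the IKK complex, had a change of -1.34, with 2 of 3 SA-H arrays near background, and of 0.20 in the value table. Tbkbp1, which binds Tbk1 and Ikbke, had a change of 0.91 from the scanner signals and of -0.06 in the value table.

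The transcription factors at the end of the pathway had 0 genes higher and 0 lower of 13 (median 0.04), against 10.8% and 12.5% of all features. The smallest p among them was that of Atf3, a repressor induced by the TLRs, with a change of 0.57 (SE 0.24, unadjusted p = 0.0519 by limma). The value table gave -0.17 for Atf3 (adjusted p = 0.335 by limma). Of 26 genes known to be induced by the pathway 12 could be tested. Of these 1 was higher and 1 lower, against the same shares of all features, and the median was 0.27. Cd80, a costimulatory ligand of antigen-presenting cells, rose by 1.27 (SE 0.33, adjusted p = 0.106 by limma), from 0.09, 0.33 and 0.07 to 2.11, 0.99 and 1.20. The value table gave 0.36 for Cd80. Ifit1, a typical interferon-induced gene, fell by 0.87 (SE 0.25, adjusted p = 0.121 by limma). Ifnb1, the interferon beta gene itself, Cxcl2 and Ptgs2 were above background on no array.

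**Figure D4:**
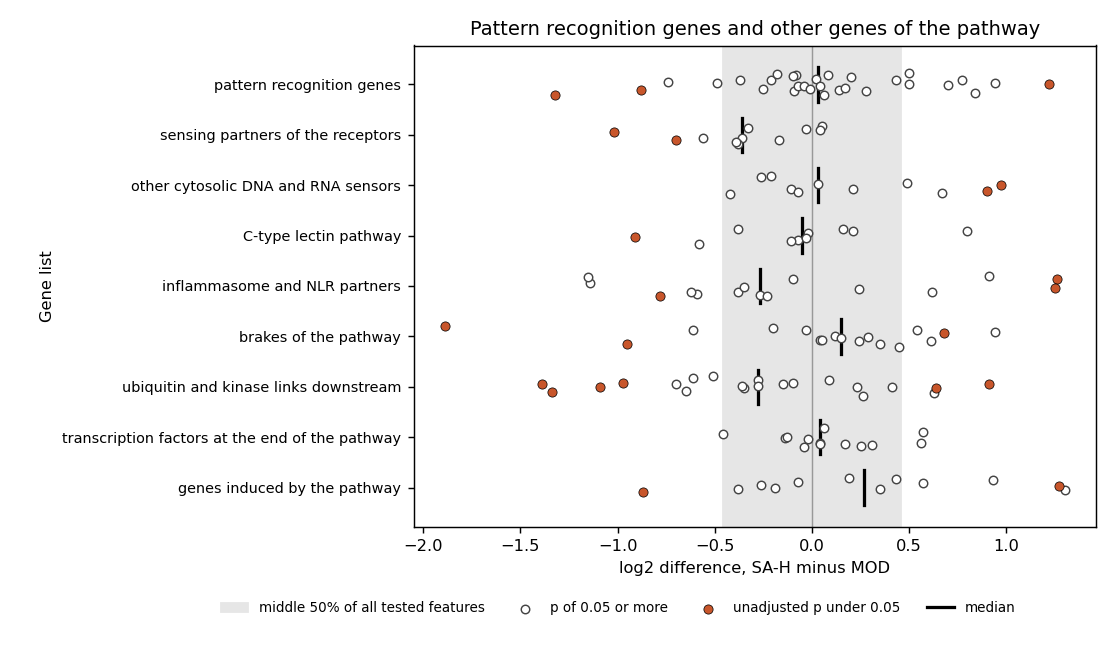
Log2 difference between the SA-H and MOD groups for the 30 pattern recognition genes (top row) and for 110 other genes of the pathway in 8 groups, with filled points at an unadjusted p under 0.05 by limma, vertical bars at each median and a grey band for the middle 50% of all tested features. The median of the pattern recognition genes is 0.03, and the medians of the other groups lie between -0.36 and 0.27.

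Markers of other cell types that carry these receptors were read from lists of their own. Their counts are at an unadjusted p under 0.05 by limma, where 10.8% of all features were higher and 12.5% lower. Natural killer cells had 3 of 6 tested markers higher and 0 lower, with a median of 0.82 from the scanner signals and of -0.49 in the value table. Conventional dendritic cells had 1 higher of 8 (median 0.06, and 0.13 in the value table). B cells had 2 higher of 11 (median -0.11, and 0.45 in the value table), Cd72 and Fcer2a. Fcer2a entered the test through the SA-H arrays alone, where it was higher. No T cell marker of 14 was called (median -0.04, and 0.75 in the value table). Erythroid cells had 4 lower of 11 (median -0.68, and -2.49 in the value table). Ribosomal protein genes, read as a sign of RNA quality, had 3 higher and 1 lower of 20 (median 0.49, and 0.08 in the value table), and their summed level was 1320 to 1600 on the MOD arrays and 1570 to 3300 on the SA-H arrays. The labels' protocol speaks of liver powder in the extraction of spleen. Of 12 hepatocyte genes 3 were tested. Serpina1a and Tat were above background on all 6 arrays, with changes of -0.65 and 1.93 that passed an unadjusted p of 0.05 (0.31 and 0.04 in the value table), and Cyp2e1 was above it on 5 arrays (change 0.49). Alb was above background on 1 array, and Apoa1, Ttr and Cyp3a11 were so on none. The part of any of these cells in the levels of the pattern recognition genes was not tested.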

How the data were processed

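Spleen RNA of 6 samples (3 MOD, 3 SA-H, grouped by the labels) was hybridized to 1-colour Agilent arrays. The deposited intensity values are processed signals from Agilent Feature Extraction 11.0.1.1, which, per the file headers, are corrected for background but not scaled between arrays. The authors also deposited a table of log2 values, with its making not given in the sources used here. Outlier spots were dropped, spots of a probe averaged, and log2 signals taken relative to the 75th percentile of 43020 spots. A probe was kept where every array of at least 1 group had it well above background, and the brightest stood for its gene (14474 features). Of 39429 probes, 27234 were named through RefSeq accessions. The comparison used limma 3.58.1 (R 4.3.3), with Benjamini-Hochberg adjustment over all features.

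All 42 genes are named, and of each other pathway list the genes with the smallest unadjusted p under 0.05, at most 3, or the 1 with the smallest p where none was below it. The members and lists were chosen with earlier results of these data known. Alternatives covered scaling, background correction (normexp with an offset of 50 on median signals, since the files hold no mean signals, chosen after seeing the data), filters, probe choice, the value table, scan day, slide, the methods' analysis of variance and each array left out. The fit was tested on simulated data. The number of arrays limits the precision.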

Additional observations from a re-analysis of the deposited data

How the results depend on the processing

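No paired analysis was made, because the labels give the MOD and SA-H arrays different replicate numbers and name no pairs. The count of pattern recognition genes at an unadjusted p under 0.05 was 3, and it was 9 in the value table and 1 to 4 with 1 array left out (1 without MOD replicate 1). Their median change of 0.03 was -0.29 with scaling by the median, which moved the median of all features to -0.36, 0.20 in the value table, -0.18 within scan day 2 and -0.09 to 0.21 with 1 array left out. For the other pathway genes the count of 19 became 50 in the value table and 10 to 22 with 1 array left out (10 without MOD replicate 1), and the median of -0.04 became -0.36 with scaling by the median, 0.21 in the value table and -0.15 to 0.02 with 1 array left out. Over all features, 3377 were called at an unadjusted p under 0.05 (1729 to 3406 with 1 array left out, lowest without MOD replicate 1). With a fold of at least 2 as well, 1849 were called, against 3158 with scaling by the median, 1135 by the methods' analysis of variance and 1228 to 2466 with 1 array left out (1228 without SA-H replicate 4). No feature passed adjustment, against 1094 with scaling by the median, 1075 with scan day as a block, 380 after normexp, 0 to 22 with 1 array left out and 1779 in the value table. Among the named pathway genes called in either source, the value table turned the direction of, or took to 0 or nearly so, Tlr1 (0.47), Tlr9 (-0.64), Unc93b1 (0.41), Traf3 (0.72), Ikbke (0.75), Enpp1 (-0.25), Tank (0.04), Chuk (0.00), Tbkbp1 (-0.06), Ikbkg (0.20), Traf6 (-0.02) and Naip5 (0.04), and the cause was not tested. Tlr12 was called from the scanner signals under every setting with a test except scaling by the median. Traf3 was called from them under every such setting, scaling by the median included, except without MOD replicate 1 and without MOD replicate 3. Traf6 was called with scaling by the median, quantile normalization, the mean of kept probes, either block and without SA-H replicate 5. Aim2 was called with quantile normalization, normexp, either block, and without MOD replicate 3 or SA-H replicate 5. Tirap was called with the filter on all 6 arrays and without SA-H replicate 4, Myd88 with scaling by the median, Irak1 after normexp, Nlrx1 without MOD replicate 2 and Sting1 without MOD replicate 3. With 1 array left out a group holds 2 arrays, and the spread is pooled over both groups.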
